A study of Mus musculus with 6 samples.

Results

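Tubulins, the proteins that bind and move along microtubules, and neurofilament subunits form the cytoskeleton of a neuron. The 34 genes described here are 7 beta-tubulins, 4 alpha-tubulins, 7 microtubule-associated proteins, 4 stathmins, 3 members of the doublecortin family, 4 neurofilament subunits and 5 kinesins. They were chosen by gene symbol from the 55341 genes listed in the count tables. The rule uses no measured value, but the choice was made with earlier results of these data known. All 34 were among the 16729 genes with enough counts to be tested. The libraries are RNA-seq of cultured mouse cerebellar granule neurons (CGNs), the small glutamatergic neurons of the cerebellum, with 3 libraries of the solvent control, DMSO, and 3 of cultures that received GSK-126, which inhibits the histone methyltransferase EZH2. Per the study's methods, granule neuron progenitors of both groups were purified on a Percoll gradient from CD1-IGS mice at P6-P8, cytosine arabinoside was given at DIV2 against dividing cells, the inhibitor was added once at DIV3 and RNA was taken at DIV5. Each replicate is a culture from pooled litters, and no genetic change is named in either group. In the GEO labels the source is cerebellar tissue and the time DIV3. The dose of the inhibitor in this experiment is not given in the sources used here.

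Microtubules are hollow polymers of alpha- and beta-tubulin heterodimers. Several genes encode near-identical tubulins, called isotypes, which differ mainly in an acidic C-terminal tail that faces outward and carries many of the modifications read by motors and microtubule-associated proteins. Young neurons are rich in isotypes and binding proteins of growing processes, such as TUBB3 and doublecortin, and MAP1A, neurofilaments and other isotypes gain ground as axons and dendrites mature. EZH2 places trimethylation on lysine 27 of histone H3, a mark of silenced genes.

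The last 60 coding bases before the stop codon show how far the isotypes differ at the C-terminal end. They are printed for 4 beta-tubulins, namely Tubb5, the most abundant, Tubb2a, which was not called, and Tubb3 and Tubb4a, which moved in opposite directions, 5′ to 3′ on the coding strand of GRCm38, and each lies in a coding exon. Capitals mark bases that differ from Tubb5 among the beta-tubulins (Tubb5 chr17:35834985-35835044, minus strand, Tubb2a chr13:34074471-34074530, minus strand, Tubb3 chr8:123421620-123421679, plus strand, Tubb4a chr17:57080693-57080752, minus strand), in an alignment that allows gaps.
Tubb5: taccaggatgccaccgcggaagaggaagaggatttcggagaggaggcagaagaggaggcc
Tubb2a: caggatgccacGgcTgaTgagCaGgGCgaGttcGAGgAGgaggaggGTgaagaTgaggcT
Tubb3: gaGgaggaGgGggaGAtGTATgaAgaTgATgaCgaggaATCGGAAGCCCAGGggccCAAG
Tubb4a: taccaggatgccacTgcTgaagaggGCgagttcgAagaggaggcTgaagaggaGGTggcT
Tubb3 differed from Tubb5 at 32 of these bases, Tubb2a at 17 and Tubb4a at 10. Bases with no counterpart in Tubb5 are counted as differing, and the coding sequence of Tubb3 is longer, at 1353 bases against 1335.

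Over the whole coding sequence, Tuba1a and Tuba1b were identical at 98.3% of aligned positions, Tuba1a and Tuba1c at 97.1% and Tuba1b and Tuba1c at 97.9%, and Tuba4a matched the other alpha-tubulins at 84.7% to 85.2%. Tubb2a and Tubb2b were identical at 96.5%, and every other pair of beta-tubulins at 80.2% to 85.7%. Some reads from near-identical stretches cannot be placed on a single gene, so the counts of such genes are uncertain. Of the 100-base windows of 1 annotated coding transcript per gene, 65.8% in Tuba1a, 73.0% in Tuba1b, 53.4% in Tuba1c, 36.9% in Tubb2a, 27.7% in Tubb2b and 30.6% in Tubb4b also occurred in a transcript of another gene. No window of Tubb3, Tubb4a, Tubb5 or Tubb6 did. Per the study's methods, reads were paired-end and longer than these windows, so some that cover a shared window may still be placed. The window shares are therefore not shares of reads lost.

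Between 7407189 and 13092763 reads per library were counted on genes. Expression is given as CPM, the count of a gene relative to the total of its library, scaled by TMM factors, and a gene was called at a Benjamini-Hochberg adjusted p under 0.05 over all genes tested, in edgeR's quasi-likelihood fit that blocks on replicate number and so compares GSK-126 with DMSO within each pair of libraries of one number. Libraries of different replicate number differed widely, and those of one number deviated together. The labels do not say that a number marks a shared culture. Replicate 2 stood apart in both groups, with a summed level of 6 astroglial markers of 2292 CPM in the DMSO library and 2172 in its GSK-126 counterpart, against 3900 to 7456 CPM in the other 4 libraries. All calls given below therefore rest on the pairing: in the fit without the replicate block, 0 of the 16729 genes were called by edgeR (0%), and 665 (3.98%) had an unadjusted p under 0.05, while DESeq2 without the block called 20 genes higher and 1 lower.

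The summed markers of granule neurons were 3074, 5543 and 3591 CPM in DMSO replicates 1 to 3 and 2220, 3715 and 2482 CPM with GSK-126. Of these 8 markers, 7 were called lower, against 5.09% of all tested genes. Their log2 fold changes ran from -0.31 (Zic1) to -1.95 (Slc17a7), and Pax6 was not called (-0.07). Of the other lists, 1 of 6 astroglial markers (S100b), 1 of 6 oligodendrocyte lineage markers (Mbp), 2 of 6 microglial markers (C1qa and C1qb) and 2 of 5 tested fibroblast, mural and endothelial markers (Acta2 and Col1a2) were called higher, 3 of 7 markers of Purkinje cells and interneurons (Gad1, Gad2 and Slc32a1) were called lower, and none of 4 tested markers of dividing cells was called. The summed level ran from 2292 to 7112 CPM in the DMSO libraries and from 2172 to 7456 in those with GSK-126 for astroglia, from 367 to 708 and from 439 to 708 CPM for the oligodendrocyte lineage, from 177 to 399 and from 254 to 489 CPM for microglia, from 198 to 227 and from 150 to 184 CPM for Purkinje cells and interneurons, from 4870 to 6867 and from 6173 to 7525 CPM for fibroblast, mural and endothelial cells, and from 210 to 296 and from 193 to 325 CPM for dividing cells. No marker was at 0 in every library. In bulk RNA, fewer cells of a type and less RNA per cell cannot be told apart, and the part of these cell types in the results below was not tested.

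**Figure D1:**
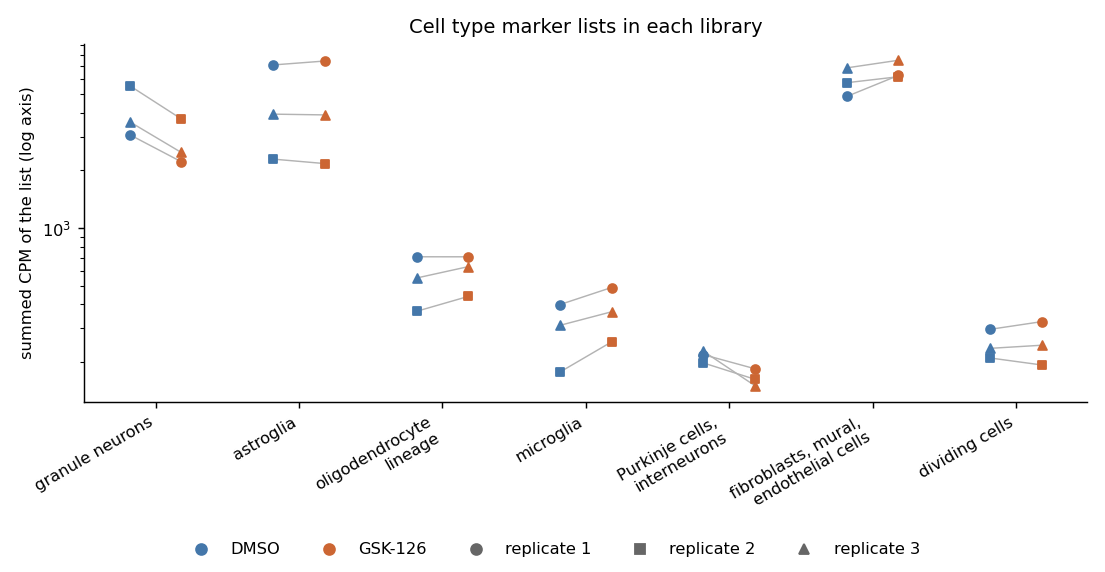
Summed CPM (log axis) of each list of cell type markers in the 6 libraries, with DMSO in blue, GSK-126 in orange, a symbol for each replicate number and a grey line joining libraries of one number. Granule neuron markers were lower with GSK-126 in every pair, and both replicate 2 libraries had the lowest astroglial sums, 2292 and 2172 CPM.

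Of the 34 cytoskeletal genes, 5 were called higher with GSK-126 (14.7%) and 9 lower (26.5%), against 3.35% of all tested genes called higher and 5.09% called lower. The set was chosen with earlier results of these data known. All but Nefh had at least 251 counts in every library, whereas the tested genes include ones with far fewer, such as Kif17. The shares are therefore not on the same footing. The genes that rose were 4 tubulins, Tubb2b, Tubb3, Tubb6 and Tuba1c, and Dcx. The genes that fell were 2 tubulins, Tubb4a and Tuba4a, with Map1a, Map2, Dclk2, Nefl, Nefm, Kif5c and Kif1b. The remaining 20 were not called. The log2 fold changes of the genes called ran from -0.58 to 0.43, and the median over the 34 was -0.04, against -0.01 over all tested genes.

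**Figure D2:**
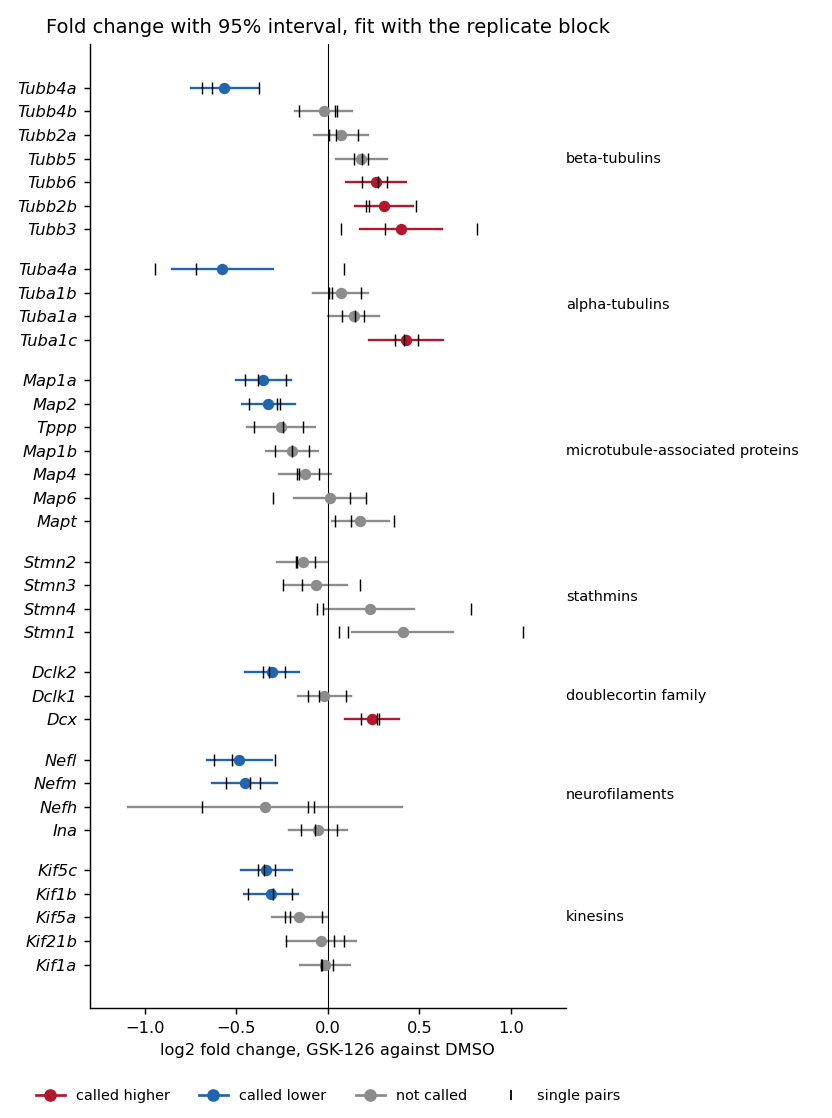
Log2 fold change of GSK-126 against DMSO for each gene by family (points), with its 95% interval from the edgeR fit with the replicate block (bars) and the difference within each of the 3 pairs (ticks). Intervals of the 5 genes called higher (red) and the 9 called lower (blue) exclude 0. Those of Tubb5, Tuba1a, Map1b, Mapt, Tppp, Stmn1 and Kif5a also exclude 0, but these genes were not called after adjustment over all genes tested. The ticks of Tuba4a, Tubb3, Stmn1 and Stmn4 are spread widest.

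The direction was the same in all 3 pairs for 11 genes that were higher (32.4%, against 19.5% of all tested genes) and for 14 that were lower (41.2%, against 22.8%), and it was mixed for 9. Among the 14 genes called, 13 had one direction in all pairs, and Tuba4a did not. The 3 GSK-126 and the 3 DMSO libraries did not overlap for 4 genes higher with GSK-126 (11.8%, against 4.72% of all tested genes), namely Tubb2b, Tubb3, Tuba1a and Tuba1c, and for 2 lower (5.88%, against 4.72%), namely Tubb4a and Dclk2.

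Beta-tubulins moved in both directions. Tubb4a, a brain-enriched isotype found in neurons and oligodendrocytes, was measured at 83.2, 125.7 and 113.5 CPM in DMSO replicates 1 to 3 and at 64.1, 81.0 and 70.4 CPM with GSK-126. Every GSK-126 library lay below every DMSO library, and the log2 fold change was -0.57 ± 0.09 (SE, n = 3 pairs, edgeR adjusted p = 0.00027). Tubb4a (chr17:57080066-57087782, minus strand) shares no 100-base window with another gene.

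The beta-tubulins that rose were Tubb3, Tubb2b and Tubb6. Tubb3, the neuron-specific isotype used as a marker of young neurons, stood at 84.0, 68.8 and 84.5 with DMSO and 88.2, 121 and 105 CPM after GSK-126, a log2 fold change of 0.40 ± 0.11 (SE, n = 3 pairs, edgeR adjusted p = 0.023). The groups did not overlap, but the difference came mostly from replicate 2, in which it was 0.81 on the log2 scale, against 0.07 and 0.31 in pairs 1 and 3. Without pair 2 its log2 fold change was 0.19 (edgeR adjusted p = 0.26), and DESeq2 with the block did not call it (adjusted p = 0.38).

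Tubb2b, an isotype abundant in the developing brain, had 249, 239 and 263 with DMSO and 291, 334 and 305 CPM after GSK-126. The groups did not overlap, and the log2 fold change was 0.31 ± 0.08 (SE, n = 3 pairs, edgeR adjusted p = 0.013), or 0.22 without pair 2 (edgeR adjusted p = 0.076). Tubb6, an isotype of many tissues, stood at 119, 79.8 and 114 CPM against 149, 96.5 and 130 CPM. It was higher in each pair although the groups overlapped (log2 fold change 0.26 ± 0.08, SE, n = 3 pairs, edgeR adjusted p = 0.043), and the call was lost without any one of the pairs (edgeR adjusted p = 0.27, 0.057 and 0.073 without pairs 1, 2 and 3) and in DESeq2 with the block (adjusted p = 0.088).

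The other 3 beta-tubulins were not called. Tubb5, the most abundant of the family and widely used across tissues, had a log2 fold change of 0.18 (edgeR adjusted p = 0.10) and was higher in every pair. It was called higher with upper-quartile factors (edgeR adjusted p = 0.040), with total counts (0.042) and with no filter (0.033). Tubb2a, close in sequence to Tubb2b, stood between 267 and 299 CPM in all 6 libraries with a log2 fold change of 0.07 (95% interval -0.08 to 0.22). Tubb4b, a broadly used isotype, ranged from 156 to 246 CPM with a log2 fold change of -0.02 (95% interval -0.18 to 0.13).

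Among alpha-tubulins, Tuba1c, a minor isotype of many cell types, rose from 43.8, 47.0 and 48.7 with DMSO to 61.8, 60.6 and 64.9 CPM after GSK-126. The 3 pairs gave like differences of 0.49, 0.37 and 0.41 on the log2 scale, the groups did not overlap, and the log2 fold change was 0.43 ± 0.10 (SE, n = 3 pairs, edgeR adjusted p = 0.0072), or 0.41 without pair 1 (edgeR adjusted p = 0.058). Of its windows, 53.4% are shared with other genes, Tuba1a, Tuba1b and Gm49450 among them, so its count covers what could be placed. Tuba1a, the main alpha-tubulin of postmitotic neurons, stood at 869, 882 and 802 CPM against 918, 1012 and 888 CPM. Its groups did not overlap either, but its log2 fold change of 0.14 was not called (edgeR adjusted p = 0.22). Tuba1b, a broadly expressed isotype, ranged from 196 to 252 CPM with a log2 fold change of 0.07 (95% interval -0.08 to 0.22). Exons of Tuba1a and Tuba1b overlap Gm49450 on the same strand, over 473 and 426 bases, so strand cannot tell reads apart there. Those of Tuba1b also overlap Gm41396 on the other strand over 87 bases.

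Tuba4a encodes the alpha-tubulin that is made without the C-terminal tyrosine of the others. It was the gene of this set that differed most between replicate numbers, with 29.0, 191 and 74.0 CPM in DMSO replicates 1 to 3 and 30.8, 99.0 and 44.9 CPM with GSK-126. The groups overlapped, replicate 1 was low in both, and the within-pair differences were 0.09, -0.94 and -0.72 on the log2 scale. The fit gave a log2 fold change of -0.58 ± 0.13 (SE, n = 3 pairs, edgeR adjusted p = 0.0083), which was -0.34 without pair 2 (edgeR adjusted p = 0.22), and DESeq2 with the block did not call it (adjusted p = 0.37). The exons of Tuba4a (chr1:75214228-75219865, minus strand) overlap those of Stk16 on the other strand over 1379 bases. The strand setting of the counting is not given in the sources used here, so reads of both genes may not be told apart there. Stk16 was measured at 48.7, 77.3 and 55.0 with DMSO and 48.6, 62.5 and 45.8 CPM after GSK-126 and was not called (log2 fold change -0.19, edgeR adjusted p = 0.27).

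**Figure D3:**
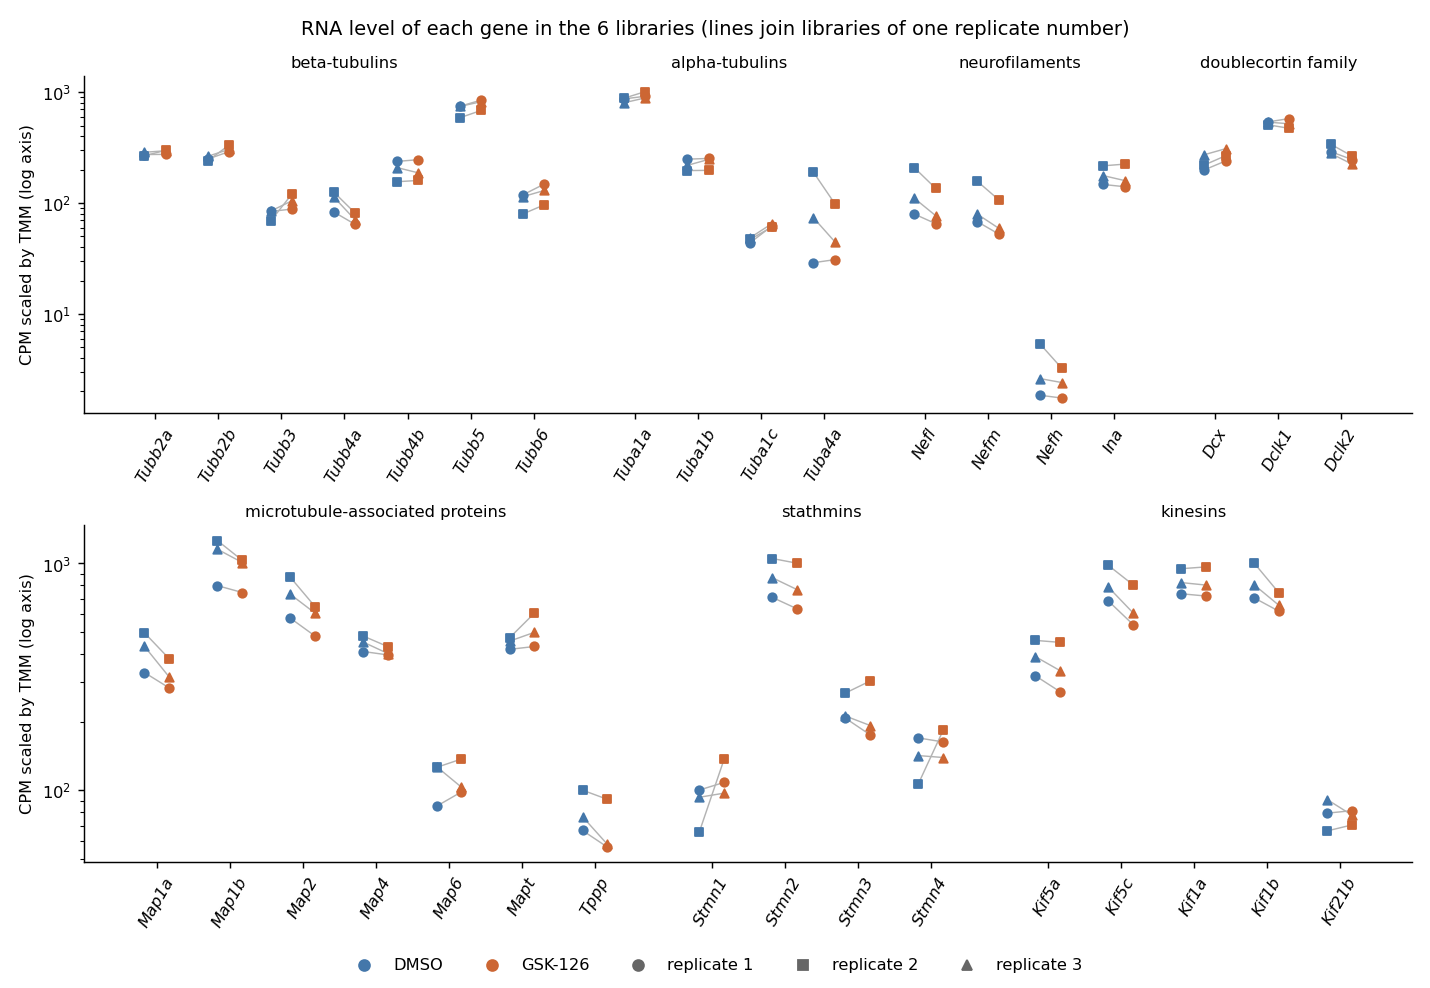
CPM scaled by TMM factors (log axis) of the 34 genes in each library, with DMSO in blue, GSK-126 in orange, a symbol for each replicate number and grey lines joining libraries of one number. Tuba4a, Nefl and Nefm were highest in both replicate 2 libraries, and for Tubb4a all 3 GSK-126 libraries, at 64.1 to 81.0 CPM, lay below the 3 DMSO libraries.

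The make-up of the tubulin pool can be read only after division by length, so isotypes were compared as CPM per kilobase of merged exons. Each was expressed as a share of its family, as a description with no test. The lengths include stretches shared with other genes, where some reads cannot be placed on a single gene. Isotypes with many shared windows, such as Tuba1a, Tuba1b and Tuba1c, may therefore read low against those with few, and the shares are approximate. Tubb4a made up 4.998%, 8.72% and 6.71% of beta-tubulin RNA in DMSO replicates 1 to 3 and 3.56%, 4.82% and 3.98% with GSK-126. Its mean share went from 6.81% ± 1.86 to 4.12% ± 0.64 (SD, n = 3), and it was lower in every pair, with a mean difference of -2.69 percentage points and an SD of 1.23. The share of Tubb2a was lower in every pair, by differences of -1.62, -0.98 and -0.29 percentage points, although its CPM was higher in every pair. That of Tubb4b, whose CPM differed in both directions, was lower in every pair, by -0.63, -1.37 and -1.895. The other isotypes had a higher mean share with GSK-126, among them Tubb2b at 15.2% ± 0.79 and 17.2% ± 1.84, Tubb3 at 5.89% ± 0.17 and 7.17% ± 1.38, and Tubb5 at 28.9% ± 1.40 and 29.98% ± 2.36 (SD, n = 3).

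The share of Tubb2b was higher in all 3 pairs, whereas the share of Tubb3 differed by -0.17 percentage points in pair 1 and by 2.905 and 1.12 points in pairs 2 and 3. Among alpha-tubulins, Tuba1a held 74.1% ± 0.88 with DMSO and 75.7% ± 2.05 with GSK-126 (SD, n = 3). The share of Tuba1c was higher in every pair, by 0.99, 0.60 and 0.74 percentage points from a DMSO mean of 3.20%. That of Tuba4a was 1.22%, 7.74% and 3.32% with DMSO and 1.23%, 3.72% and 1.82% with GSK-126, so that it was lower in pairs 2 and 3 and level in pair 1.

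**Figure D4:**
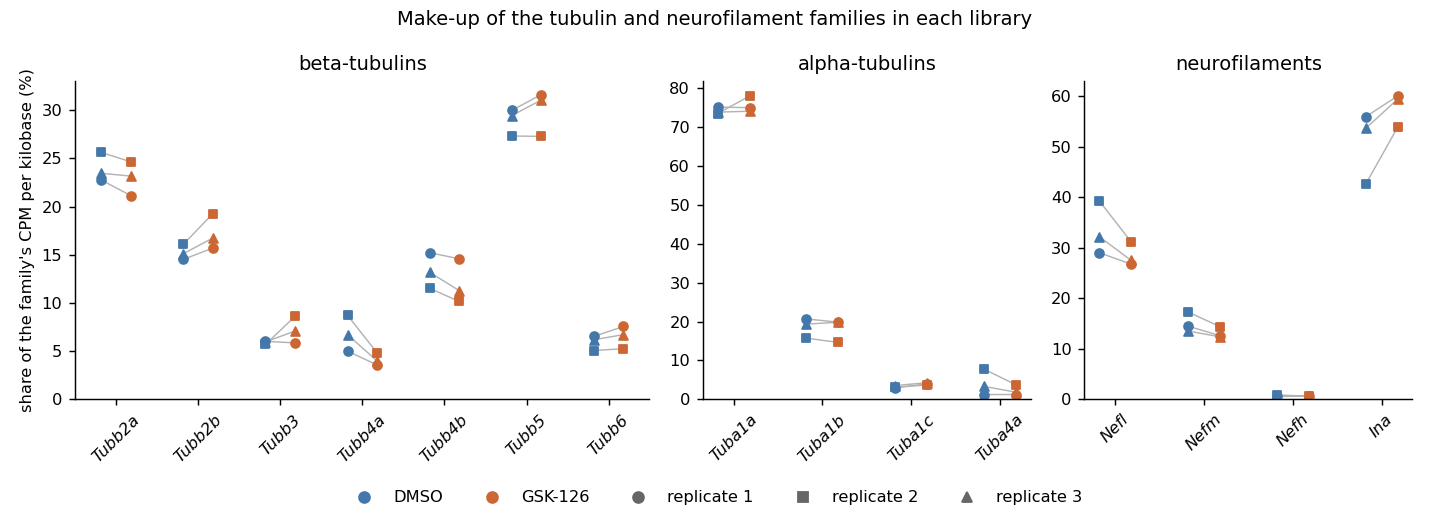
Share (%) of each isotype or subunit in the summed CPM per kilobase of its family, for beta-tubulins, alpha-tubulins and neurofilaments, in each library (DMSO blue, GSK-126 orange, a symbol for each replicate number, lines joining pairs). The share of Tubb4a was lower with GSK-126 in every pair (means 6.81% and 4.12%), and that of Ina was higher in every pair (means 50.7% and 57.8%). Lengths include stretches shared between genes, so the shares are approximate.

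The promoters of the isotypes that moved most are shown because these genes went in opposite directions. RefSeq promoters on GRCm38.p6, from 250 bases before to 50 bases after the start, were matched by symbol for 22 of the 34 genes. The 4 printed here are those of Tubb4a (chr17:57087551-57087850, minus strand) and Tuba4a (chr1:75219245-75219544, minus strand), which fell, and of Tubb3 (chr8:123411303-123411602, plus strand) and Tuba1c (chr15:99029641-99029940, plus strand), which rose. Capitals mark GGGCGG, the core of the GC box bound by SP-family factors, and TATAA, the core of the TATA box, on either strand.
Tubb4a: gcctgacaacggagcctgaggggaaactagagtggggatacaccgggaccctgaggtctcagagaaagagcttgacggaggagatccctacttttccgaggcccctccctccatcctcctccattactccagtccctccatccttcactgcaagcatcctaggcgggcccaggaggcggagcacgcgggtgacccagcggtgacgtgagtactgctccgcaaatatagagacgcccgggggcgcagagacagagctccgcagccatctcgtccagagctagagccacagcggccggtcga
Tuba4a: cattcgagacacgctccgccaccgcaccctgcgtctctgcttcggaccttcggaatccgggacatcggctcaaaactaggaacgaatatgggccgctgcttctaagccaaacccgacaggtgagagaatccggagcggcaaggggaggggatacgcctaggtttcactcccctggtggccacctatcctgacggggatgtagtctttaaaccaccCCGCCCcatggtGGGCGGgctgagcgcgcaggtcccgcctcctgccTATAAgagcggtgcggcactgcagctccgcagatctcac
Tubb3: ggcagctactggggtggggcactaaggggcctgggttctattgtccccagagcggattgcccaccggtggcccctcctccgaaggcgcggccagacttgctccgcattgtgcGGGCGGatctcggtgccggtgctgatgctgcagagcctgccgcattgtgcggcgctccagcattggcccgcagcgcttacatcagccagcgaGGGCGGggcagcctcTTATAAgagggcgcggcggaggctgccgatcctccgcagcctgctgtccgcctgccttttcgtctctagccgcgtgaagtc
Tuba1c: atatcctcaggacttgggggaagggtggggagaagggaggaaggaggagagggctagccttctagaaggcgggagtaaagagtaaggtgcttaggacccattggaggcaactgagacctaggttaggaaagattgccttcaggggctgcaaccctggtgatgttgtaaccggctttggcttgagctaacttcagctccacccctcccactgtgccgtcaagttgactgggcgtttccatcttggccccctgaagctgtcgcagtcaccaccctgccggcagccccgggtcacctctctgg
GGGCGG occurred in a promoter of 16 of the 22 genes (72.7%) and in 35.7% of the 32851 promoters of the table, and TATAA in 9 of 22 (40.9%) and 24.9%. Some genes have more than 1 promoter in the table, so the shares are not on the same footing. Of the 7 genes with a promoter that fell, 6 held GGGCGG and 2 held TATAA, and of the 3 that rose, 1 and 2 did. In Tubb3 both TATAA matches are the same letters read on each strand. Neither GGGCGG nor TATAA is in the printed windows of Tubb4a and Tuba1c, and a match is a description of letters, not a bound site.

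Of the 4 subunits of neurofilaments, the polymers that set the calibre of axons, Nefl and Nefm fell. Nefl, the light subunit on which the polymer is built, was measured at 79.6, 209 and 111 CPM in DMSO replicates 1 to 3 and at 65.2, 136 and 76.9 CPM with GSK-126. Nefm, the medium subunit, was measured at 67.9, 157 and 79.4 CPM and at 52.5, 107 and 59.2 CPM. Replicate 2 was highest in both groups and the groups overlapped, but each pair was lower. The log2 fold change was -0.48 ± 0.08 for Nefl (SE, n = 3 pairs, edgeR adjusted p = 0.00087) and -0.45 ± 0.08 for Nefm (SE, n = 3 pairs, edgeR adjusted p = 0.0016). The exons of these neighbours on chromosome 14 overlap on opposite strands over 1108 bases, so, with the strand setting unknown, their values may not be fully separate measurements. Without the block and without DMSO replicate 2, the log2 fold change was -0.038 for Nefl and -0.014 for Nefm.

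Ina, which encodes alpha-internexin, the subunit that joins the triplet in central neurons, ranged from 140 to 224 CPM with a log2 fold change of -0.05 (95% interval -0.21 to 0.10), and 456 bases of its exons overlap Nt5c2 on the other strand. Its share of neurofilament RNA per kilobase was higher with GSK-126 in each pair, by 4.12, 11.3 and 5.77 percentage points, while that of Nefl differed by -2.28, -8.13 and -4.705 points. Nefh, the heavy subunit of mature large axons, had only 16 to 57 counts per library, and its log2 fold change of -0.34 had a 95% interval from -1.09 to 0.41, so that a change the size of that of Nefl was not detectable at this depth.

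Of the 7 microtubule-associated proteins, Map1a and Map2 fell and the others were not called. Map1a, which is abundant in mature neurons, was at 331, 495 and 431 with DMSO and 283, 380 and 316 CPM after GSK-126, a log2 fold change of -0.35 ± 0.07 (SE, n = 3 pairs, edgeR adjusted p = 0.0032). Map2, the dendritic microtubule-associated protein, was at 574, 868 and 731 CPM and at 478, 644 and 603 CPM, a log2 fold change of -0.32 ± 0.07 (SE, n = 3 pairs, edgeR adjusted p = 0.0045). For both the groups overlapped and each pair was lower. Exons of Map1a overlap Ppip5k1 on the other strand over 272 bases and those of Map2 overlap Gm10558 over 124 bases.

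Map1b, the relative of Map1a in growing axons, had a log2 fold change of -0.19 (edgeR adjusted p = 0.087), and Tppp, which promotes tubulin polymerization and is abundant in oligodendrocytes, had -0.26 (edgeR adjusted p = 0.088). Both were lower in every pair, as was Map4, a widely expressed microtubule stabilizer (-0.12, edgeR adjusted p = 0.31). Mapt, which encodes the axonal protein tau, was higher in every pair, with 0.04, 0.36 and 0.13 on the log2 scale (fit 0.18, edgeR adjusted p = 0.16). Map6, which stabilizes microtubules in the cold, had pairs in both directions and a fitted value of 0.01 (95% interval -0.18 to 0.20).

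In the doublecortin family, the 2 genes called went opposite ways. Dcx, which encodes the microtubule-binding protein of migrating young neurons, was at 199, 220 and 273 with DMSO and 240, 268 and 309 CPM after GSK-126. It was higher in each pair although the groups overlapped (log2 fold change 0.24 ± 0.07, SE, n = 3 pairs, edgeR adjusted p = 0.037), and leaving out any one pair ended the call, at edgeR adjusted p = 0.16, 0.070 and 0.072 without pairs 1, 2 and 3. Dclk2, a doublecortin-like kinase, was at 291, 339 and 280 with DMSO and 247, 265 and 224 CPM after GSK-126. The groups did not overlap (log2 fold change -0.31 ± 0.07, SE, n = 3 pairs, edgeR adjusted p = 0.0085). Dclk1, its close relative, ranged from 472 to 577 CPM with a log2 fold change of -0.02 (95% interval -0.17 to 0.13).

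Stathmins bind free tubulin dimers and promote disassembly, and none of the 4 was called. Stmn1, the form of dividing and young cells, had 100, 65.6 and 93.3 with DMSO and 108, 137 and 97.2 CPM after GSK-126. The within-pair differences were 0.11, 1.06 and 0.06 on the log2 scale, and the fit gave 0.41 ± 0.13 (SE, n = 3 pairs, edgeR adjusted p = 0.062), or 0.09 without pair 2. It was called higher with upper-quartile factors (edgeR adjusted p = 0.042), with total counts (0.042), with no filter (0.00012) and with at least 10 counts in every library (0.047). Of its windows, 26.1% also occurred in Gm11223. Stmn4, a brain form, likewise differed in pair 2 (0.78 on the log2 scale), with -0.06 and -0.03 in pairs 1 and 3, and was called higher with no filter (edgeR adjusted p = 0.049). Without pair 1, and without pair 3, the fit called both genes higher.

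Replicate 2 with DMSO was the lowest library for both Stmn1 and Stmn4, at 65.6 and 107 CPM, and replicate 2 with GSK-126 the highest, at 137 and 184 CPM. Stmn2, a growth cone protein, ranged from 631 to 1052 CPM with a log2 fold change of -0.14 (edgeR adjusted p = 0.24). Stmn3 ranged from 176 to 304 CPM with a log2 fold change of -0.07 (95% interval -0.24 to 0.10).

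Of the kinesins, 2 axonal motors fell. Kif5c, a neuronal heavy chain of conventional kinesin, was at 684, 982 and 788 with DMSO and 538, 805 and 606 CPM after GSK-126, a log2 fold change of -0.34 ± 0.07 (SE, n = 3 pairs, edgeR adjusted p = 0.0026). Kif1b, which carries mitochondria and synaptic vesicle precursors, was at 705, 1003 and 805 CPM and at 616, 741 and 653 CPM, a log2 fold change of -0.31 ± 0.07 (SE, n = 3 pairs, edgeR adjusted p = 0.0069). The groups overlapped for both, with each pair lower. Kif5a, the sister gene of Kif5c, was lower in every pair but not called (-0.16, edgeR adjusted p = 0.21). Kif1a, a motor of synaptic vesicle precursors, had -0.01 (95% interval -0.15 to 0.12), and Kif21b, a motor that acts on microtubule growth, had -0.04 (95% interval -0.22 to 0.15).

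The calls did not all stand on the same ground. Tubb4a, Map1a, Map2, Dclk2, Nefl, Nefm, Kif5c and Kif1b kept their call in every fit with the block, whichever tool, scaling, filter, threshold or omitted pair was used. Each of the other 6, Tuba4a and the 5 that rose, lost it in at least 1 such fit. Without pair 2 the fit called 1 of the 34 genes higher, Tuba1c (2.94%, against 2.6% of all tested genes), and the 8 named above lower (23.5%, against 3.75%). In the fit without the replicate block, 4 of the 34 genes (11.8%) had an unadjusted p under 0.05, namely Tubb2b, Tubb3, Tubb4a and Tuba1c, and the smallest adjusted p was 0.95.

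Levels per kilobase set the genes in order, as a description. In DMSO, Tuba1a led at 472 ± 23.8 CPM per kilobase (SD, n = 3), followed by Tubb5 at 208 ± 27.1, Stmn3 at 202 ± 29.6, Tubb2a at 171 ± 6.28 and Stmn2 at 156 ± 30.6. The lowest were Map6 at 12.3 ± 2.63, Kif21b at 6.477 ± 1.018 and Nefh at 0.82 ± 0.46 (SD, n = 3). Neighbours in this order had DMSO libraries that did not overlap only between Tuba1a and Tubb5, Stmn3 and Tubb2a, Map6 and Kif21b, and Kif21b and Nefh. Merged exons hold every annotated variant, so genes with many long variants, such as Map2 and Map4, read lower on this scale than per transcript. Genes with many windows shared with other genes, such as Tuba1a, Tuba1b and Tubb2a, may read low too.

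**Figure D5:**
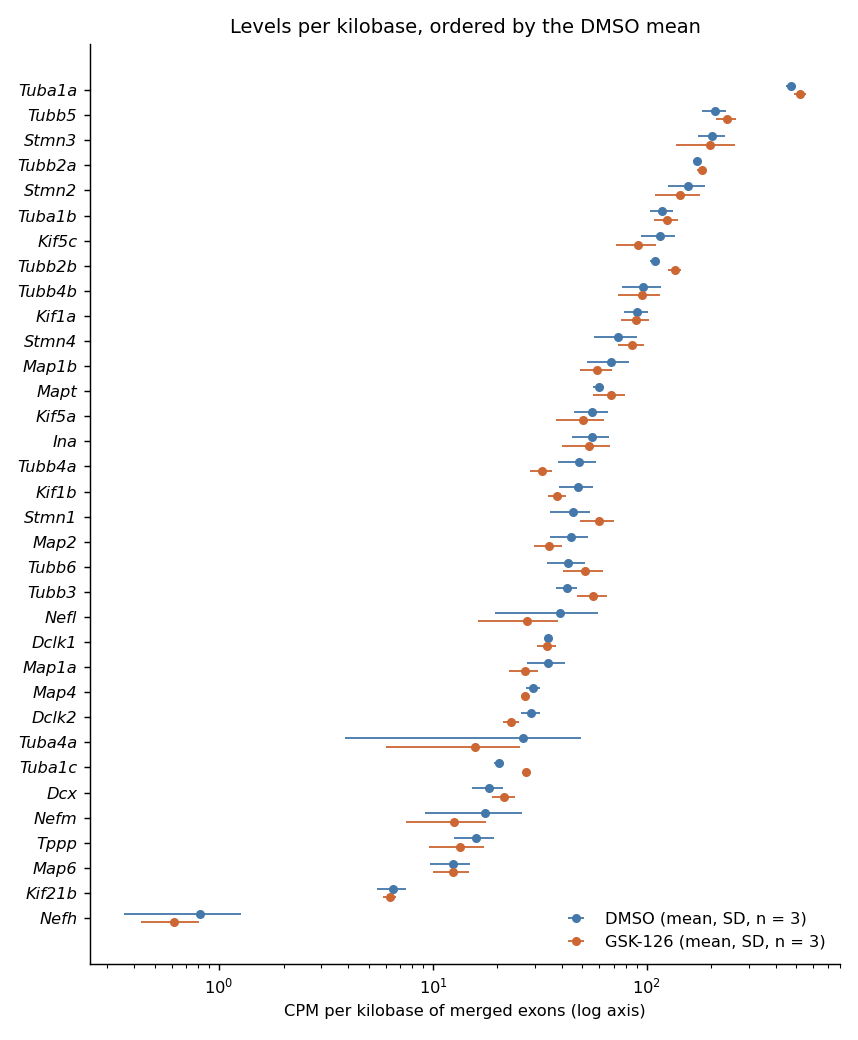
Mean CPM per kilobase of merged exons (log axis) of the 34 genes with DMSO (blue) and GSK-126 (orange), with SD over 3 libraries as bars, ordered by the DMSO mean. Tuba1a stood highest at 472 and Nefh lowest at 0.82, and Tuba4a had one of the widest spreads between libraries.

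Other genes of the microtubule and filament systems, were listed by role from general knowledge. Of 119 such genes, 110 were tested. Of these 110, 3 were called higher and 11 lower, against 561 (3.35%) and 851 (5.09%) of the 16729 genes tested. The share called higher was thus no larger than that of all tested genes, and the share called lower was larger. These lists were also chosen with earlier results of these data known, and the difference was not tested. None of 4 other tubulins, 7 severing or depolymerizing proteins and 9 spindle proteins tested was called. Of 20 folding and modifying enzymes, 2 fell, namely Agtpbp1, which trims glutamate chains from tubulin tails (log2 fold change -0.31, edgeR adjusted p = 0.010), and Vash1, which removes the terminal tyrosine (-0.34, edgeR adjusted p = 0.019).

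Of 17 end-binding and nucleating proteins, Mapre3, a plus-end protein of neurons (-0.39, edgeR adjusted p = 0.0059), and Camsap2, which caps minus ends (-0.25, edgeR adjusted p = 0.0498), fell. Of 13 other microtubule-associated proteins, Mtus1 (-0.77) and Map7d2 (-0.47) fell and Dpysl5, a collapsin response mediator (0.28), rose. Of 15 other kinesins and light chains, Kif13a (-0.39), Klc2 (-0.32) and Kif3a (-0.30) fell and Kif16b, an endosomal motor (0.56), rose. Of 16 dynein and dynactin genes, Dync1i1, an intermediate chain (-0.75), and Bicd1, a cargo adaptor (-0.48), fell. Of 9 other intermediate filament genes, 1 rose, namely Lmna, a nuclear lamin (0.32, edgeR adjusted p = 0.014).

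Within these lists, the fall of Mtus1 was the largest. It was measured at 99.8, 247 and 127 CPM in DMSO replicates 1 to 3 and at 69.1, 116 and 80.8 CPM with GSK-126, with each pair lower and the groups overlapping (edgeR adjusted p = 2.6e-05). Dync1i1, at 17.995, 26.6 and 22.8 CPM against 12.1, 14.6 and 13.0 CPM, had no overlap between the groups (edgeR adjusted p = 0.0028). Kif16b, at 13.4, 10.5 and 12.1 CPM against 18.2, 14.6 and 20.4 CPM, had none either (edgeR adjusted p = 0.035).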

How the data were processed

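RNA-seq of 6 CGN cultures was analysed, 3 with DMSO and 3 with GSK-126, grouped by the sample titles. Per the study's methods and the submitters' processing notes, the authors trimmed poly(A)-enriched reads with Trimmomatic 0.38, aligned them with STAR 2.7.2b to GRCm38 (mm10), counted reads over exons of a Gencode annotation of GRCm38.p4 with HTSeq and deposited raw counts per gene, with no normalization. The Gencode release number and the strand setting are not given in the sources used here. The 55341 symbols of the tables are those of GENCODE M21, which gave coordinates, lengths and overlaps. Lines that name no gene held 58.7% to 60.7% of the reads and were left out.

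Counts were tested in R 4.3.3 with edgeR 4.0.16 (TMM, filterByExpr, quasi-likelihood test, Benjamini-Hochberg adjusted p under 0.05 over 16729 genes) with the replicate number as a block. The study's methods name DESeq2, which was an alternative here (1.42.0). The block was used because libraries of one number deviated together (correlation of deviations from the group means 0.56, 0.63 and 0.49). For unlike numbers the correlation was at most 0.0064. Deviations cancel out within a group, so low values for unlike numbers follow from the others and add no separate evidence. The labels do not say that numbers mark a shared culture. The biological coefficient of variation was 9.74% with the block and 24.0% without. Within-pair differences are of log2 CPM with a prior count of 2. The SE is the log2 fold change over the square root of the F statistic. No pair of libraries was a copy, the lowest chi-square per degree of freedom being 9.01. Counts of the 34 genes ran from 251 to 13527 per library, apart from Nefh. What limited the precision was not tested. Upper-quartile, total-count and median-of-ratios scaling, other filters, a stricter threshold and leaving out libraries were tried.

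The gene set and all lists were chosen with earlier results of these data known. All 34 genes are named, those called with values in every library. Of each list of related genes, up to 4 called genes with the smallest p are named, and Stk16 was added for its overlap. Sequences and figures were handled in Python 3.11.15 with biopython 1.88 and matplotlib 3.10.9. The coding ends of the alpha-tubulins are not reported here.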

Additional observations from a re-analysis of the deposited data

How the results depend on the processing

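The replicate block decided every call. In the fit with no replicate block, edgeR called 0 genes, 0 of the 34 and 0 related genes in either direction, also without any single library, and DESeq2 without the block called 20 genes higher and 1 lower, with 0 of the 34 and 0 related genes. With the block, DESeq2 called 369 genes higher and 618 lower, with 3 of the 34 higher and 1 related gene higher and 7 lower, and an adjusted p under 0.01 left 242 higher and 474 lower, with 1 of the 34 higher and 0 related genes higher and 6 lower. Of all calls, 39.7% were higher with TMM, 41.0% with median-of-ratios, 51.0% with upper-quartile and 50.2% with total counts. Upper-quartile factors and total counts each called 7 of the 34 higher, adding Tubb5 and Stmn1, and 5 related genes higher, and no filter called 8 of the 34 and 6 related genes higher. Over all settings that leave out a pair or a library, 0 to 581 genes were called higher and 0 to 777 lower, 0 to 5 and 0 to 9 of the 34, and 0 to 4 and 0 to 9 related genes. Leaving out replicate 2 gave 1 of the 34 higher, and 1 related gene higher and 7 lower. The share of Tuba1c rose by 1.01 percentage points when computed from CPM, against 0.77 per kilobase. Among the genes called, only Tuba4a changed direction, to 0.17 without DMSO replicate 2 and no block, but with no block and 1 library left out Nefl ran from -0.91 to -0.038 and Nefm from -0.86 to -0.014. Uncalled genes near 0 changed sign. With upper-quartile factors and with total counts, Tubb4b reached 0.0114 and 0.0111, Dclk1 0.0154 and 0.0155, and Kif1a 0.0199 and 0.0201, and Kif1a also reached 0.00066 with no filter and 0.0029 with at least 10 counts in every library. With the block and a pair left out, the log2 fold change ran from -0.0519 to 0.0451 for Tubb4b, -0.0703 to 0.165 for Map6, -0.192 to 0.0365 for Stmn3, -0.0439 to 0.396 for Stmn4, -0.064 to 0.0256 for Dclk1, -0.0352 to 0.0103 for Kif1a and -0.0945 to 0.0616 for Kif21b. With no block and 1 library left out, the sign turned without DMSO replicate 1 for Tubb4b (0.117) and Map6 (-0.166), without DMSO replicate 2 for Tuba1b (-0.0033), Stmn2 (0.027), Stmn3 (0.0939), Nefh (0.127), Ina (0.113) and Kif1a (0.0925), and without DMSO replicate 3 for Tubb4b (0.0095) and Kif21b (0.0723). It turned without GSK-126 replicate 1 for Stmn2 (0.0307), Stmn3 (0.128), Ina (0.107), Kif5a (0.0298) and Kif1a (0.0971), without GSK-126 replicate 2 for Tubb4b (0.111), Map6 (-0.164), Dclk1 (0.0536) and Kif21b (0.0122), and without GSK-126 replicate 3 for Tubb4b (0.0167), Stmn3 (0.0596), Ina (0.0168) and Kif1a (0.0109). The causes were not tested.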

Other observations

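The abundant filament genes of cells other than neurons, Gfap, Vim and Nes, were singled out after their values were seen. Gfap is 1 of the 6 astroglial markers, of which 3 were above 0 and 3 below, and Aqp4 (log2 fold change -0.15), Slc1a3 (-0.13) and Gja1 (-0.19) were lower in every pair and not called. Gfap, the intermediate filament of astrocytes, was measured at 2856, 787 and 1703 CPM in DMSO replicates 1 to 3 and at 3300, 919 and 1719 CPM with GSK-126, higher in each pair but not called (log2 fold change 0.15, edgeR adjusted p = 0.21). Vim, a filament of glia and mesenchymal cells, was at 1364, 949 and 1550 CPM and at 1680, 1061 and 1648 CPM (0.18, edgeR adjusted p = 0.11). Nes, a filament of progenitors and reactive glia, was at 164, 160 and 210 CPM and at 210, 181 and 230 CPM (0.22, edgeR adjusted p = 0.076). For all 3 the groups overlapped, and Gfap was lowest in replicate 2 of each group.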
